A study of Homo sapiens with 3 samples.

Results

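The interleukin-1 (IL-1) family ligands and receptors described here are 10 genes: the agonists IL1A, IL1B and IL18, the receptor antagonist IL1RN, the receptors IL1R1, IL1R2, IL1RL1, IL18R1 and IL18RAP, which lie in 1 cluster on chromosome 2 that also holds IL1RL2, and the shared co-receptor IL1RAP on chromosome 3. They are 10 of 57773 gene IDs in the count table, and all 10 had a row. The genes were chosen by family, with the fold changes of the same libraries already known, so the changes of these 10 genes, and which of them passed the threshold used for all genes, are given as a description, and no p-value is printed for them. The libraries were made from polyadenylated RNA of NB4, a human acute promyelocytic leukaemia cell line with the PML-RARA fusion. Cells carried short hairpin RNA number 2 against ARID1B (1 library), hairpin number 3 against ARID1B (1 library) or a non-targeting control hairpin (1 library). ARID1B is one of the ARID-domain subunits of the SWI/SNF (BAF) nucleosome remodeller, and the question was what its silencing does to NB4 cells. All 3 groups share the NB4 background, RPMI medium and serum, and the labels do not say whether the knockdown libraries came from separate infections or cultures.

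IL-1 family cytokines signal by bringing together a ligand-binding receptor chain and an accessory chain, whose intracellular TIR domains recruit MYD88 and IRAK kinases and activate NF-kB and stress kinases. IL1R1 binds IL-1 alpha and IL-1 beta with IL1RAP as partner, IL1R2 is a decoy that binds the ligand without signalling, and IL1RN occupies IL1R1 without recruiting IL1RAP. IL1RL1 (ST2) is the receptor for IL-33, also with IL1RAP, and is known from mast cells, basophils, eosinophils and type 2 lymphocytes. IL18R1 and IL18RAP are the binding and accessory chains for IL-18. IL1RAP is carried by leukaemic progenitors in several myeloid leukaemias.

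The libraries held 59997475 counts under hairpin 2, 62954803 under hairpin 3 and 61640692 with the control hairpin. Levels are CPM, that is counts scaled to a common library size with TMM factors. A count of 0 leaves room for 3 counts, which are 0.0499 CPM under hairpin 2, 0.0481 under hairpin 3 and 0.0483 in the control. The targeted gene had 2209 counts under hairpin 2 and 2234 under hairpin 3, against 5268 in the control library, and fell by 1.23 on the log2 scale (SE 0.125). Of the promyelocyte markers, MPO had 741714 to 836096 counts in the knockdown libraries and 682719 in the control, while ELANE had 1 to 4 counts in the knockdown libraries and 10 in the control. CTSG, the 1 of the 5 promyelocyte markers that passed the test (edgeR and DESeq2), had 1672 and 2183 counts in the knockdown libraries and 6837 in the control. Across 20382 genes tested with edgeR, 8.7% passed an adjusted p of 0.05. The 5.49% that were higher with ARID1B silenced were 1119 genes and the 3.21% that were lower were 655 genes (775 and 277 with DESeq2, 991 and 850 with upper quartile factors). Without a filter on low counts edgeR called 0 genes (3218 had an unadjusted p under 0.05; DESeq2 called 1052 of the filtered genes), so no call below holds under that setting.

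In the ARID1B-silenced cells, the mRNAs of the IL-33 receptor, the IL-18 accessory chain and IL-1 beta were several-fold more abundant than in control cells, and the shared co-receptor was moderately more abundant. The fitted difference was 28.6-fold for IL1RL1, 4.58-fold for IL1B, 4.32-fold for IL18RAP, 2.33-fold for IL18R1 and 1.44-fold for IL1RAP. IL1A had a fitted 8.22-fold difference that rests on 1 count in the control and did not pass the threshold. IL18R1 did not pass the threshold, and neither did the antagonist IL1RN, which was at 0.632 of the control level. The IL-1 receptor chains proper, IL1R1 and IL1R2, had at most 8 counts in any library. Of the 10 genes, 8 had enough counts to be tested. Among these, 4 passed the threshold upward (IL1B, IL1RL1, IL18RAP and IL1RAP) and 0 downward (6 and 0 at an unadjusted p under 0.05 in edgeR, 4 and 0 in DESeq2). Because the genes were picked with this contrast in view, nothing is read from that count beside the 8.7% of all genes. Of the 8 tested, 7 had a higher CPM under both hairpins than in the control, as did 36.9% of all genes tested, and for the same reason nothing is read from that either.

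**Figure D1:**
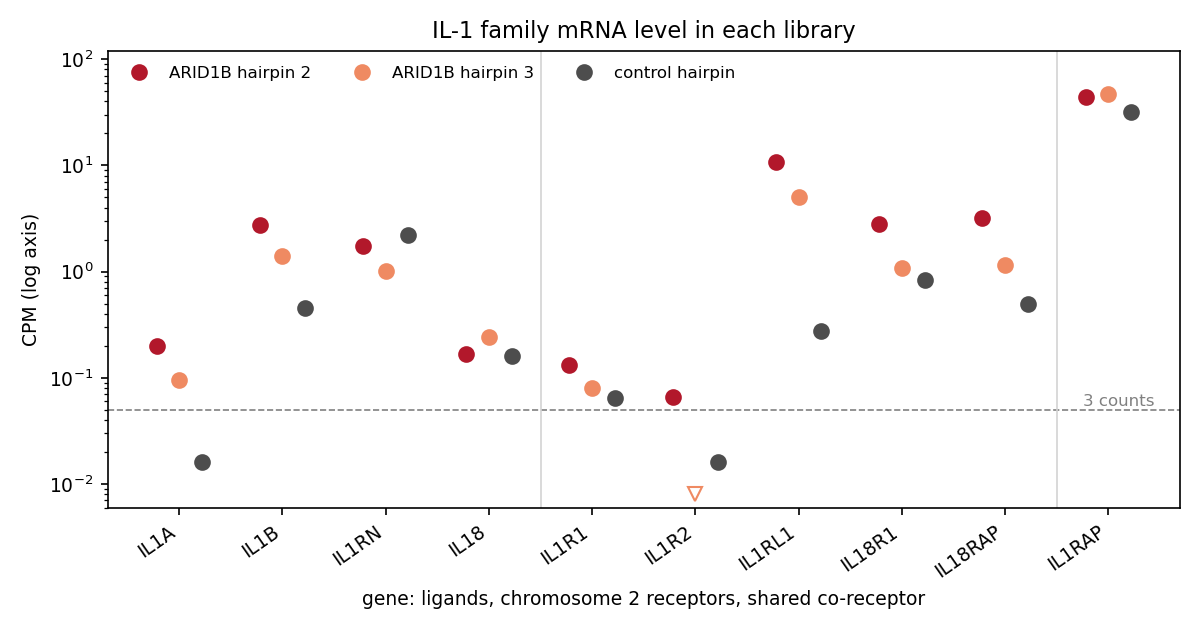
Level of each IL-1 family gene in each library, in CPM on a log axis, with ligands at the left, the chromosome 2 receptors in the middle and IL1RAP at the right; the dashed line marks 3 counts and the open triangle a count of 0. IL1RL1 stands at 10.8 and 5.02 CPM under the ARID1B hairpins and 0.274 CPM in the control, and IL1RAP is the most abundant gene in every library.

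Among the ligands, IL1B (ENSG00000125538) encodes the secreted pyrogen IL-1 beta, which is made as a precursor and cut by caspase-1. IL1B had 166 counts under hairpin 2, 87 under hairpin 3 and 28 in the control library, or 2.76, 1.40 and 0.451 CPM. The knockdown libraries averaged 2.08 ± 0.965 CPM (SD, n = 2). Both lay above the control, the hairpin 2 library 6.12-fold (exact 95% counting interval 4.08 to 9.49) and the hairpin 3 library 3.09-fold (2.0 to 4.92). The fitted log2 fold change was 2.19 with a standard error of 0.47.

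IL1RN (ENSG00000136689), the secreted and intracellular receptor antagonist, had lower counts in both knockdown libraries. It had 106 counts under hairpin 2, 63 under hairpin 3 and 136 in the control, or 1.76, 1.01 and 2.19 CPM. The hairpin 3 library was at 46.1% of the control (exact 95% counting interval 33.7 to 62.6), and the hairpin 2 library was at 80.5% with an interval that includes equality (61.8 to 105). The fitted log2 fold change was -0.66 ± 0.329 (SE), which did not pass the threshold. Per kilobase of exon, antagonist mRNA stood at 0.607 of the level of IL1B mRNA under hairpin 2 and 0.689 under hairpin 3, against 4.62 times its level in the control. In these 3 samples IL1RN mRNA stood below IL1B mRNA in both silenced libraries and above it in the control. No interval was computed for these ratios, and the control one rests on 136 and 28 counts. Lengths are the union of all annotated exons, so which mRNA was the more abundant is uncertain, above all under hairpin 3 (63 and 87 counts).

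IL1A (ENSG00000115008), the cell-associated agonist IL-1 alpha, was near the floor. It had 12 counts under hairpin 2, 6 under hairpin 3 and 1 in the control library. The hairpin 2 library was 12.4-fold above the control, with an exact 95% counting interval of 1.83 to 530.0, and the hairpin 3 library 5.98-fold with 0.725 to 275, so the size of the difference is poorly determined at this depth. IL18 (ENSG00000150782), the ligand of IL18R1, had 10 counts under hairpin 2, 15 under hairpin 3 and 10 in the control, and its log2 fold change was 0.34 ± 0.658. A difference in IL18 was not detectable at this depth. IL33, the ligand of IL1RL1, was at 0 counts in all 3 libraries, which leaves room for 3 counts in each (0.0499 CPM under hairpin 2).

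Among the receptors, IL1RL1 (ENSG00000115602) held the strongest difference. It had 647 counts under hairpin 2, 313 under hairpin 3 and 17 in the control library, or 10.8, 5.02 and 0.274 CPM. Both knockdown libraries lay far above the control, 39.3-fold under hairpin 2 (exact 95% counting interval 24.4 to 67.9) and 18.3-fold under hairpin 3 (11.3 to 31.9). The fitted log2 fold change was 4.84 ± 0.513 (SE), which ranked 15 among the 1119 genes called higher. IL1RL1 made up 63.4% of the counts of the 5 clustered receptors under hairpin 2 and 68.3% under hairpin 3, against 16.2% in the control, where IL18R1 had the most. IL1RL1 encodes a membrane receptor and a soluble decoy form from alternative ends, and counts per gene sum the forms.

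The accessory chain for IL-18, IL18RAP (ENSG00000115607), had 192 counts under hairpin 2, 72 under hairpin 3 and 31 in the control, or 3.19, 1.15 and 0.499 CPM. The ratio to control was 6.4 under hairpin 2 (exact 95% counting interval 4.36 to 9.67), and under hairpin 3 it was 2.31 (1.5 to 3.65), and the fitted log2 fold change was 2.11 ± 0.544. IL18R1 (ENSG00000115604), the ligand-binding chain, had 170 counts under hairpin 2, 68 under hairpin 3 and 52 in the control, or 2.83, 1.09 and 0.837 CPM. It was 3.38-fold above control under hairpin 2 (2.46 to 4.70), and 1.30-fold under hairpin 3 with an interval that includes equality (0.894 to 1.91). Its fitted log2 fold change of 1.22 ± 0.472 did not pass the threshold. Per kilobase, the accessory chain stood at 1.66 and 1.55 times the binding chain under hairpins 2 and 3, against 0.875 in the control. No interval was computed for these ratios, and the control one rests on 31 and 52 counts. Lengths are the union of all annotated exons, so which chain was the more abundant is uncertain.

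IL1R1 and IL1R2 were near the floor. IL1R1 (ENSG00000115594), the signalling receptor for IL-1, had 8 counts under hairpin 2, 5 under hairpin 3 and 4 in the control, and IL1R2 (ENSG00000115590), the decoy, had 4 under hairpin 2, 0 under hairpin 3 and 1 in the control. The counting interval of every ratio of these genes to the control included equality (IL1R1 under hairpin 2 was at 2.07, from 0.553 to 9.37). A count of 0 for IL1R2 under hairpin 3 allows up to 0.0481 CPM.

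IL1RAP (ENSG00000196083), the co-receptor for IL1R1 and IL1RL1, was the most abundant of the 10 genes and differed least between hairpins. It had 2631 counts under hairpin 2, 2946 under hairpin 3 and 1965 in the control library, or 43.7, 47.3 and 31.6 CPM (45.5 ± 2.48 CPM in the knockdown libraries, SD, n = 2). The hairpin 2 library was 1.38-fold above the control (exact 95% counting interval 1.30 to 1.47), the hairpin 3 library 1.49-fold (1.41 to 1.58), with a fitted log2 fold change of 0.52 ± 0.137. IL1RAP took 66.7% of the counts of all 10 genes under hairpin 2 and 82.4% under hairpin 3, against 87.5% in the control. Per kilobase of exon, co-receptor mRNA exceeded IL1RL1 mRNA 2.02-fold under hairpin 2 and 4.68-fold under hairpin 3, against 57.5-fold in the control. No interval was computed for these ratios, and the control one rests on 17 IL1RL1 counts. Lengths are the union of all annotated exons, so the size of each ratio is uncertain.

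**Figure D2:**
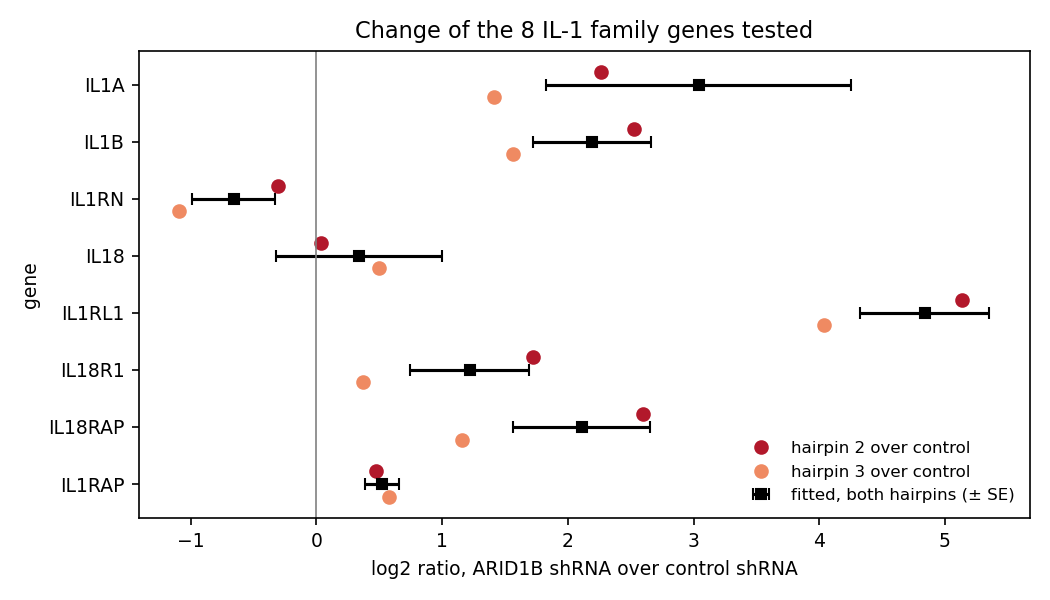
Log2 ratio of ARID1B shRNA over control shRNA for the 8 genes tested; squares are the edgeR fit over both hairpins with its standard error, and circles are each hairpin library over the control with a prior count of 2, which pulls genes of few counts such as IL1A toward 0. IL1RL1 is furthest to the right at 4.84, IL1RN alone lies below 0, and the hairpins lie close together for IL1RAP.

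Several calls rested on settings of the test. With robust empirical Bayes, IL1RL1 and IL18RAP did not pass and IL1B and IL1RAP did. When only genes averaging 1 CPM or more were tested, IL1RL1 alone passed, and with no filter on low counts none of the 10 did (0 in edgeR, 4 at an unadjusted p under 0.05; DESeq2 called 4 of the 8 in the filtered table). With hairpin 2 left out, the log2 ratio was 4.04 for IL1RL1, 1.56 for IL1B, 1.16 for IL18RAP and 0.37 for IL18R1.

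Start-site windows are printed for the 5 genes with the largest fitted differences (IL1RL1, IL1A, IL1B, IL18RAP and IL18R1), to show what lies at their promoters, and for IL1RAP. Both windows of IL1RL1 and IL18R1 are given, and the first listed of the 2 of IL1A and of the 3 of IL18RAP. They were taken from RefSeq (GRCh38.p14, a different build from the hg19 named for the counts, matched by symbol) and span 250 bases before to 50 after an annotated start. In all, 9 of the 10 genes had windows, 20 in number. Capitals mark matches, on either strand, to 4 short motifs. AGATAA is known from GATA factors. GAGGAA is known from PU.1 and other ETS factors. TTGCNNAA is known from C/EBP factors and GGGNNTTTC from NF-kB. Only these exact letters were searched, so variants of them, such as TGATAA in the upstream IL1RL1 window, are not marked. The upstream IL1RL1 window is chr2:102311313-102311612 and the downstream one chr2:102337007-102337306, both on the plus strand. The upstream IL18R1 window is chr2:102355546-102355845, the downstream one chr2:102356033-102356332 and the IL18RAP window chr2:102418371-102418670, also on the plus strand. The IL1A window is chr2:112784444-112784743 and the IL1B window chr2:112836730-112837029, both on the minus strand, and the IL1RAP window, shown for contrast in base composition, is chr3:190513835-190514134 on the plus strand.
IL1RL1 upstream start: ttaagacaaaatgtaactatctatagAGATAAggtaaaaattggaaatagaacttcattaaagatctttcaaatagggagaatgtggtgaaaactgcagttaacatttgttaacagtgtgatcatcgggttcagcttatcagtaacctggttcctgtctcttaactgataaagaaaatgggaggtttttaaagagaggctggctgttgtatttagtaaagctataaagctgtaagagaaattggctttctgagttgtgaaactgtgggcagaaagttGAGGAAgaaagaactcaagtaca
IL1RL1 downstream start: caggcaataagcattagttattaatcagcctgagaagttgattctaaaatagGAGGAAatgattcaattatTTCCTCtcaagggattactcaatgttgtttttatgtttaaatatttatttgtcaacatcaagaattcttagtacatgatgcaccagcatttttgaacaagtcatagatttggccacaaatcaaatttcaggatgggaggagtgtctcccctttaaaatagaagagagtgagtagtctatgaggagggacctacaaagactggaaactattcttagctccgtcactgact
IL18R1 upstream start: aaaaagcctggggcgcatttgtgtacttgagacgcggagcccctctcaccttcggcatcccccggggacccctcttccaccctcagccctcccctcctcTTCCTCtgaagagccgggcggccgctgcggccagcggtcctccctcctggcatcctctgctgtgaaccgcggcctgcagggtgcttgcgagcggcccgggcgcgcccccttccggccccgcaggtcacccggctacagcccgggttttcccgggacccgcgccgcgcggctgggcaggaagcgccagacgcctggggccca
IL18R1 downstream start: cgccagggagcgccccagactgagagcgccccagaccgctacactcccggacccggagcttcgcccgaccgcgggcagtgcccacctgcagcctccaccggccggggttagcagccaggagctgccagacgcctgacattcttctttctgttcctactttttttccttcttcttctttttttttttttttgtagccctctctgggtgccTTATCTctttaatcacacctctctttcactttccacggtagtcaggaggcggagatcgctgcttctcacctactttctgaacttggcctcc
IL18RAP: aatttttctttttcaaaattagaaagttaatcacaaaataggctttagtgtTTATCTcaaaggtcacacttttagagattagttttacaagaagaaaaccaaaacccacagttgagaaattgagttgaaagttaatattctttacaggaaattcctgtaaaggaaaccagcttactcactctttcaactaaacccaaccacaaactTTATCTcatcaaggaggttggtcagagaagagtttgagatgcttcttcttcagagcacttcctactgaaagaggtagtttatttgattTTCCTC
IL1A: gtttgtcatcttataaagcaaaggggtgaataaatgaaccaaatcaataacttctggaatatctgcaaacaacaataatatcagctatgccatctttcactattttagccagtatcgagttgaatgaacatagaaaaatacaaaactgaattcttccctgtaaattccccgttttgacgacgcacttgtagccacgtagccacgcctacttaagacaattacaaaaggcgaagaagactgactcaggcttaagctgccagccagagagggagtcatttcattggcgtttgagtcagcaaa
IL1B: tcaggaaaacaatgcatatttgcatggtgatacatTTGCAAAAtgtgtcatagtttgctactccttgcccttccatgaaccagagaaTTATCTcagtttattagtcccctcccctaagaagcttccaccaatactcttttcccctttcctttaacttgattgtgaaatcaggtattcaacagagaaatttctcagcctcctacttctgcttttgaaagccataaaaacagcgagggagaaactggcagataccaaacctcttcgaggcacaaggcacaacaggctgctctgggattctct
IL1RAP: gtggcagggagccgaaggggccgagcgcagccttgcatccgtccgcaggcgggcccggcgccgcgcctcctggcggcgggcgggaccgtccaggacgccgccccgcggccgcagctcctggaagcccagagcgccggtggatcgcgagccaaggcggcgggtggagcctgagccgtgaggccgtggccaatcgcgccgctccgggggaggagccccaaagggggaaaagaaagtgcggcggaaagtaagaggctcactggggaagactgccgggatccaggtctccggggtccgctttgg

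AGATAA or its reverse complement TTATCT occurred in windows of 5 genes (IL1B, IL1R1, IL1RL1, IL18R1 and IL18RAP), in 6 of the 20 windows, and in 10.3% of all 35116 RefSeq windows of this length. GAGGAA or TTCCTC occurred in 9 of the 20, also in 5 genes (the 5 clustered receptors), and in 27.9% of all windows. TTGCNNAA was found in 2 of the 20 (IL1B and IL1R1; 10.5% of all) and GGGNNTTTC in 2 that overlap each other (IL1RN; 4.78% of all). Windows of a gene with several starts can overlap, and a gene with more windows had more chances of a match. The first 2 windows of IL18RAP overlap and hold the same 2 TTATCT sites and the same TTCCTC site. Both windows are counted for each of these motifs. The IL1RAP window and both IL1A windows held no match to these 4 motifs. Base composition differed between the windows: the windows of IL1RL1 and IL18RAP printed above had 33.3% to 35.7% G and C with 0 or 1 CpG, the IL1A window 39.7% with 8, the IL1B window 42.3% with 2 and the IL1RAP window 73.7% with 36, beside medians of 58.7% and 14 over all windows. The upstream IL18R1 window had 72.3% with 29 and the downstream one 56.7% with 16. The counts per gene do not show which start was used.

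Within the chromosome 2 receptor cluster, the genes in order are IL1R2, IL1R1, IL1RL2, IL1RL1, IL18R1 and IL18RAP. The 3 genes at the IL18RAP end were those with higher levels in the silenced cells (IL18R1 without passing the threshold), while IL1R2, IL1R1 and IL1RL2, the receptor for IL-36 cytokines, stayed at 8 counts or fewer in each library. Of the flanking protein-coding genes, MAP4K4, a kinase gene next to IL1R2, had 3655 and 3118 counts under hairpins 2 and 3 and 3486 in the control (log2 fold change -0.02 ± 0.142, edgeR adjusted p = 0.962). MFSD9 had -0.08 ± 0.162 (adjusted p = 0.848 in edgeR) and RFX8 0.41 ± 0.177 (adjusted p = 0.191 in edgeR). SLC9A4 and SLC9A2, the sodium-proton exchangers beyond IL18RAP, and CREG2 had at most 7 counts. IL1RL1 and IL18R1 share 95 exon bases in GENCODE 29, which is 1.65% of the IL1RL1 exon length and 2.18% of that of IL18R1. How reads over those bases were assigned is not given in the labels.

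The ligand cluster, further along chromosome 2, runs from IL1A and IL1B through IL37 and the IL-36 genes to IL1RN. The 6 ligand genes between IL1B and IL1RN had at most 4 counts in any library. Outside it, SLC20A1, NT5DC4 and CKAP2L on the IL1A side had log2 fold changes of 0.35 ± 0.131, 0.66 ± 0.232 and 0.51 ± 0.165, none past the threshold (edgeR adjusted p = 0.122, 0.0982 and 0.0685). On the IL1RN side, PSD4 had 0.25 ± 0.149 (adjusted p = 0.389 in edgeR) and CBWD2 -0.02 ± 0.146 (adjusted p = 0.962 in edgeR). PAX8, a paired-box transcription factor gene, had 638 and 630 counts under the ARID1B hairpins and 976 in the control (log2 fold change -0.60 ± 0.16, edgeR adjusted p = 0.0272), a call lost with DESeq2 and when genes averaging under 1 CPM were left out (adjusted p = 0.152 and 0.0612). PAX8 shares 9.26% of its exon length with an antisense gene of more counts, PAX8-AS1.

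**Figure D3:**
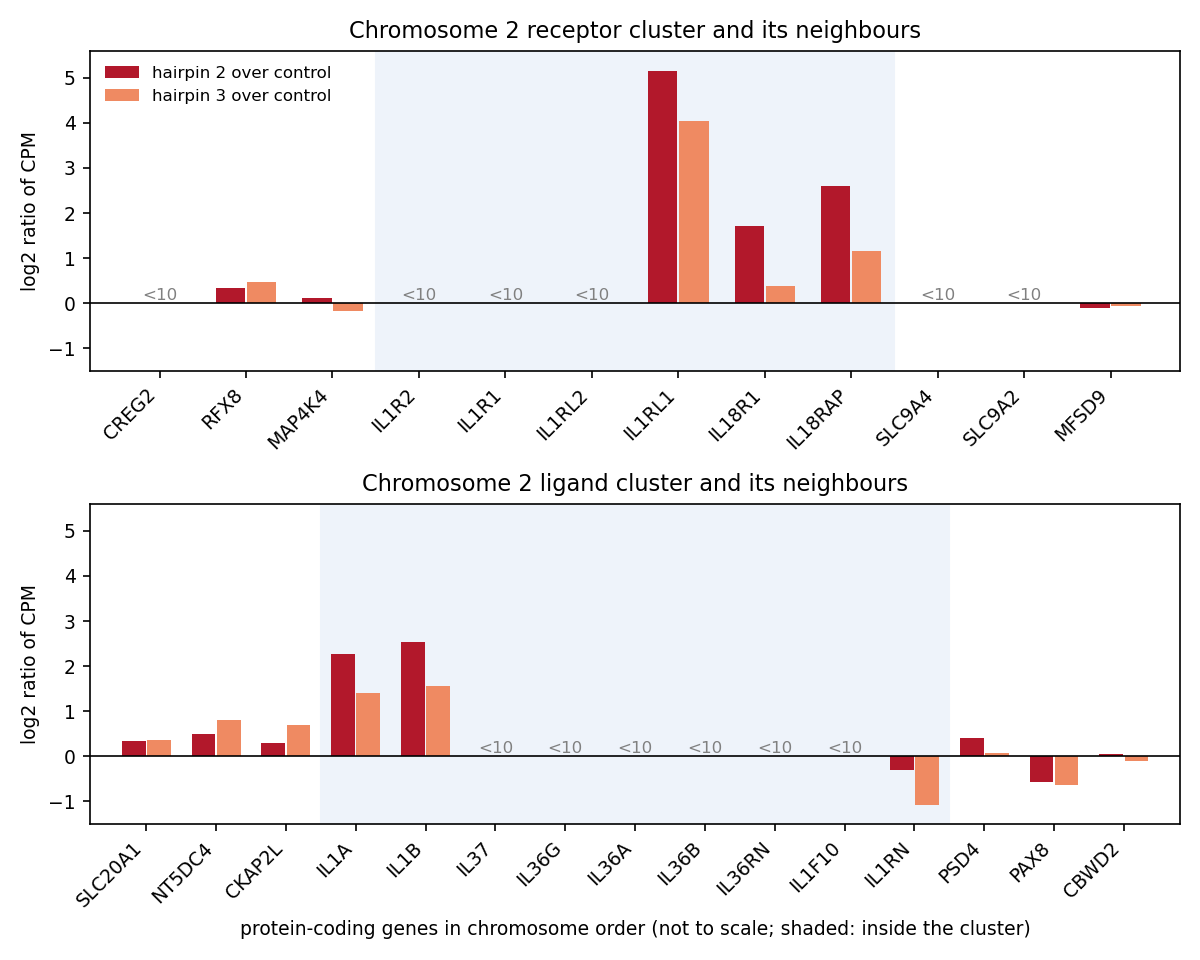
Log2 ratio of CPM of each ARID1B hairpin library over the control library (prior count 2) for protein-coding genes in their order along chromosome 2, with the receptor cluster above and the ligand cluster below (shaded) and 3 neighbours on each side; "<10" marks genes with fewer than 10 counts in every library. Both bars are above 1 at IL1RL1, IL18RAP, IL1A and IL1B, the IL18R1 bar is high under hairpin 2 (1.72) and low under hairpin 3 (0.37), and IL1RN lies below 0.

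The hairpins differed from each other for most of these genes while ARID1B itself had a ratio of hairpin 2 to hairpin 3 of 1.03 with an exact 95% counting interval of 0.966 to 1.09. Of the 6 genes averaging 1 CPM or more, 5 were at least 1.5-fold higher under hairpin 2 than under hairpin 3. Over all genes with that mean, 2.5% were, and over genes with a mean CPM of 1 to 10, where 5 of the 6 lie, 5.74% were. Over genes called at least 2-fold higher, which include only IL1B, IL1RL1 and IL18RAP of the 6, 33.9% were. The 6 were chosen with the changes in these libraries known, so nothing is read from their count. The ratio of hairpin 2 to hairpin 3 was 2.76 for IL18RAP (exact 95% counting interval 2.10 to 3.68), 2.59 for IL18R1 (1.95 to 3.49), 2.14 for IL1RL1 (1.87 to 2.46), 1.98 for IL1B (1.52 to 2.59) and 1.74 for IL1RN (1.27 to 2.42). Their counting intervals overlap, and the order among these 5 was not tested. IL1RAP was the exception at 0.926 (0.878 to 0.976). With 1 library per hairpin these ratios have no replicate check, and the intervals cover counting error only.

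The genes whose pair of log2 ratios (hairpin 2 and hairpin 3 over control) lay nearest to each member were sought among 14390 named genes averaging 1 CPM or more, over 3 libraries that share the control. For IL1RL1, at 5.14 and 4.04, these were the kinase gene CDK15 (4.97 and 4.14, distance 0.193) and the histidine decarboxylase gene HDC (4.99 and 3.92, distance 0.196). For IL1B they were IPCEF1, the integrin gene ITGB7 and the platelet-activating factor receptor gene PTAFR (distances 0.116, 0.135 and 0.225). For IL18RAP they were the transcription factor gene TFEC, RBM47 and ITGB7 (0.159, 0.23 and 0.275), and for IL18R1 AP001010.1, PIK3R5 and SLC2A9 (0.113, 0.195 and 0.214). IL1RN lay nearest AC012629.2, TMEM273 and AC011495.3 (0.0371, 0.0759 and 0.119), and IL1RAP nearest KBTBD8, KPNA2 and GUSB (0.00614, 0.0153 and 0.0214).

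Of 93 other genes of the pathway with a row, 67 were tested, of which 8 rose and 3 fell with ARID1B silenced at an edgeR adjusted p under 0.05 (5 and 2 with DESeq2). These 11 are 16.4% of those tested, beside 8.7% of all genes tested (5.49% higher and 3.21% lower), and no test of that difference was made. The median log2 fold change of the 67 tested pathway genes was 0.06, against -0.01 over all genes tested. The lists were drawn up with earlier results of these data known. Of the other family members, only IL18BP, which neutralises IL-18, and SIGIRR, an inhibitory receptor, were tested, and neither passed (edgeR; 0 at an unadjusted p under 0.05 and 0 with DESeq2). IL18BP had 1677 and 1464 counts under hairpins 2 and 3 and 1803 in the control (log2 fold change -0.18 ± 0.148), and SIGIRR had 1053 and 734 under the ARID1B hairpins and 772 in the control (0.24 ± 0.203). IL18BP shares 15.6% of its exon length with NUMA1 on the other strand, so its counts are uncertain.

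Genes that mature the cytokines changed in both directions, 3 up and 2 down of 13 tested (edgeR; 2 and 1 with DESeq2), where 5.49% of all genes were called higher and 3.21% lower. CASP1, the caspase that cuts IL-1 beta and IL-18, had 900 and 584 counts under hairpins 2 and 3, against 423 in the control (log2 fold change 0.84 ± 0.236, edgeR adjusted p = 0.0367). CASP1 was lost with DESeq2, with robust empirical Bayes and without the genes under 1 CPM (adjusted p = 0.0824, 0.171 and 0.131), and it has a close copy in CARD16, so its counts are uncertain. CASP8, which can also cut IL-1 beta, had 3210 and 3263 counts under the ARID1B hairpins and 1909 in the control (0.78 ± 0.135, edgeR adjusted p = 0.00141). Of the neutrophil serine proteases that trim IL-1 family cytokines, PRTN3 rose (2.11 ± 0.151) and CTSG fell (-1.81 ± 0.141). The inflammasome sensor NLRP1 fell, with 320 and 296 counts under the ARID1B hairpins and 551 in the control (-0.82 ± 0.192, edgeR adjusted p = 0.013), a call lost with DESeq2 (adjusted p = 0.101). NLRP3, the sensor most tied to IL-1 beta release, had 1723 and 1405 counts under the ARID1B hairpins and 1549 in the control (0.04 ± 0.159).

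Of 18 tested receptor-proximal adaptors and kinases, 0 rose (edgeR; 2 at an unadjusted p under 0.05 and 0 with DESeq2) and 1 fell. PELI2, a Pellino ubiquitin ligase that binds IRAK proteins, fell, with 111 and 147 counts under hairpins 2 and 3 and 461 in the control (-1.82 ± 0.228, edgeR adjusted p = 7.9e-05). MYD88, the adaptor that every signalling receptor of the family needs, had 1791 and 1511 counts under the ARID1B hairpins and 1716 in the control (-0.03 ± 0.153), and the kinase gene IRAK4 had 2567 and 2604 under the ARID1B hairpins and 2483 in the control (0.08 ± 0.132). The larger shifts that did not pass were those of IRAK1 (0.39 ± 0.148), TIFA (0.49 ± 0.171) and TRAF6 (-0.45 ± 0.172). IRAK1 had the most counts of this list, 32300 and 31284 under hairpins 2 and 3 and 24612 in the control. Of 18 tested members of the NF-kB and stress kinase modules, 0 passed (edgeR; 2 higher and 2 lower at an unadjusted p under 0.05, 0 with DESeq2). The members with most counts, IKBKB and MAPK14, had log2 fold changes of -0.02 ± 0.142 and -0.14 ± 0.128.

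Of 16 tested genes that IL-1 signalling is known to induce, 5 rose and 0 fell (edgeR; 7 and 1 at an unadjusted p under 0.05, 3 and 0 with DESeq2), with a median log2 fold change of 0.46, beside 5.49% of all genes called higher and 3.21% lower. The monocyte chemoattractant CCL2 had 734 and 366 counts under hairpins 2 and 3 and 36 in the control (3.96 ± 0.436, edgeR adjusted p = 2.8e-05), a call lost with robust empirical Bayes (adjusted p = 0.139). ICAM1, an adhesion molecule, had 2245 and 1023 counts under the ARID1B hairpins and 493 in the control (1.76 ± 0.326). It was lost with DESeq2, robust empirical Bayes and without the genes under 1 CPM (adjusted p = 0.428, 0.538 and 0.0554), and 22% of its exon length lies opposite the antisense gene AC011511.5. CXCL8 (0.98 ± 0.173) and TNF (0.91 ± 0.185) passed in edgeR with adjusted p = 0.00168 and 0.00479. The fifth, ZC3H12A, a ribonuclease that degrades cytokine mRNAs (0.67 ± 0.181), was lost with DESeq2 and without the genes under 1 CPM (adjusted p = 0.0917 and 0.0752). Other classical targets were not among them: TNFAIP3 had 0.06 ± 0.159 and SOD2 -0.10 ± 0.13, CXCL1 and PTGS2 had 0 counts in each library, and IL6 at most 2. The cytokines that IL-33 or IL-18 elicit elsewhere, IL4, IL5, IL9 and IL13 among them, had at most 3 counts in any library.

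**Figure D4:**
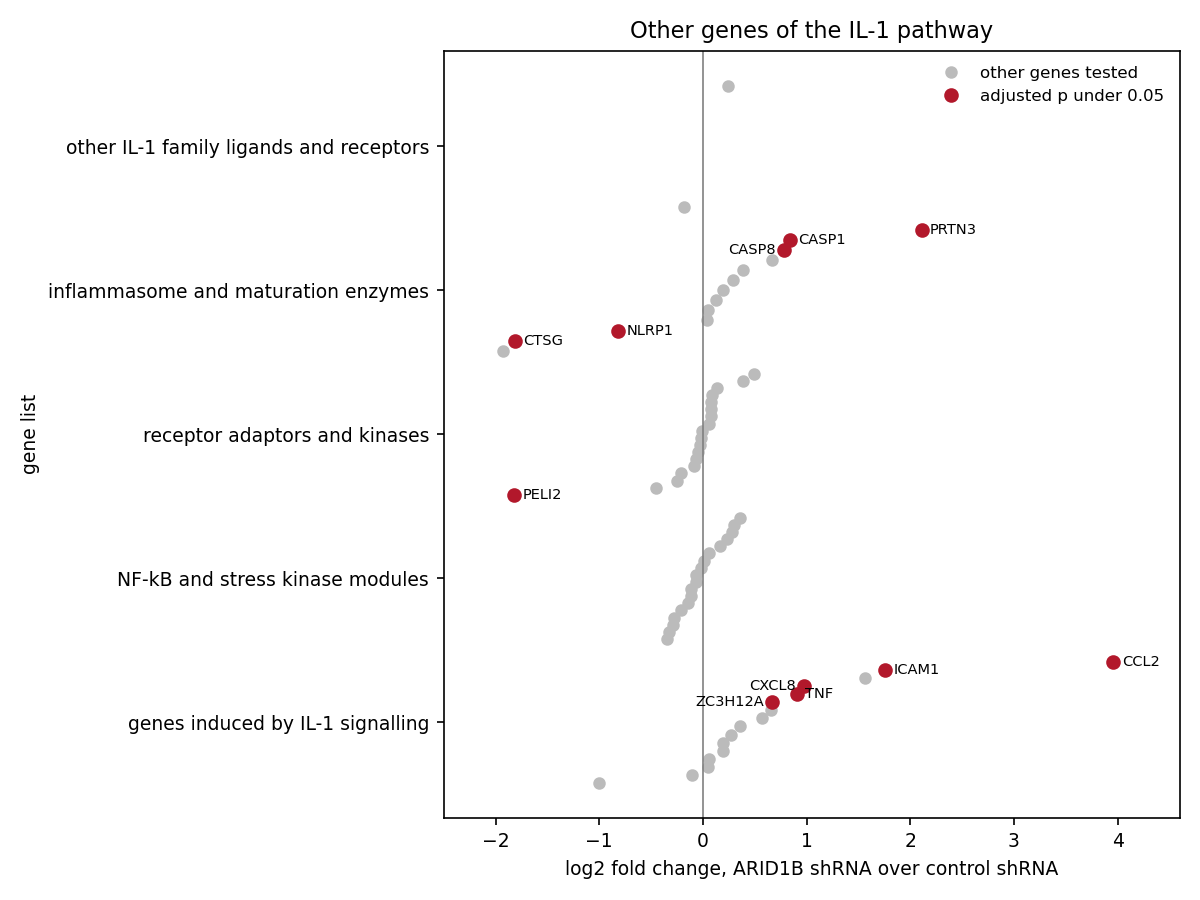
Log2 fold change of ARID1B shRNA over control shRNA (edgeR) for the other tested genes of the IL-1 pathway, 1 point per gene, by list; red points have an adjusted p under 0.05. The adaptor and NF-kB lists gather around 0 apart from PELI2, and CCL2 is furthest to the right at 3.96.

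Markers of mast cells, basophils and eosinophils, cells that carry IL1RL1 in the body, were also more abundant in the silenced libraries. Of 7 tested, 6 rose and 0 fell (edgeR; the same counts at an unadjusted p under 0.05 and with DESeq2). The share called higher over all genes, for this and the next lists, was 5.49%. The 8 markers of this list summed to 2140 and 1120 CPM under hairpins 2 and 3 and 91.7 CPM in the control. PRG2, EPX and HDC made up most of that sum, with 1260, 529 and 340 CPM under hairpin 2. CPA3 and TPSAB1 were far lower, at 2.08 and 7.1 CPM under hairpin 2 and 2.25 and 11.1 CPM under hairpin 3. MS4A2 did not pass, and FCER1A, a chain of the high-affinity IgE receptor, had 0 counts in each library. Of 6 tested monocyte and macrophage markers 3 rose (2 with DESeq2), with sums of 74.4 and 51.9 CPM under the ARID1B hairpins and 32.1 CPM in the control, and CD14 had 16 and 13 counts under the ARID1B hairpins and 5 in the control. Of 5 tested T, NK and B cell markers 2 rose (1 with DESeq2), with sums of 61.6 and 46.7 CPM under the ARID1B hairpins, against 33.8 CPM in the control, and MS4A1 had 0 counts. Of 2 tested endothelial, epithelial and fibroblast markers 0 passed (edgeR; 0 at an unadjusted p under 0.05 and 0 with DESeq2), and the 6 of that list summed to 18.2 and 22.2 CPM under the ARID1B hairpins and 22.3 CPM in the control. In bulk RNA, a change in the number of cells that express a gene and a change in RNA per cell cannot be told apart, and the part of these markers in the levels of IL1RL1, IL18R1, IL18RAP and IL1B was not tested.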

How the data were processed

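NB4 polyadenylated RNA was sequenced in 3 libraries, 2 with ARID1B hairpins and 1 with a control hairpin. The authors deposited whole-number read counts per Ensembl gene ID, not normalized. STAR, Cufflinks, featureCounts and hg19 are named per the submitters' processing notes; their roles, annotation release and strand setting are unstated, so the split of reads between overlapping genes is uncertain.

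Names and exon lengths came from GENCODE 29, which named 52338 of the IDs. edgeR 4.0.16 in R 4.3.3 was run with filterByExpr by group (minimum count 10), TMM scaling and the two-sided quasi-likelihood test (legacy = FALSE), Benjamini-Hochberg adjusted over all 20382 genes tested, threshold 0.05. Of a gene's own counts, only the difference between both hairpins informed the spread (1 residual degree of freedom), and the lone control was assumed to vary alike. Each gene's spread was drawn toward that typical of all genes (14.8 prior degrees of freedom), so it rests mostly on other genes. Since separate cultures are not stated, p-values measure the spread of these samples alone, which may be technical. Standard errors are the log2 fold change over the square root of F. Single-hairpin ratios used log2 CPM with a prior count of 2, and counting intervals (95%) were exact conditional binomial; they cover counting error only. Scripts were tested on simulated data. DESeq2 1.42.0 and the other settings were alternatives.

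The 10 genes and all lists were chosen with earlier results of these data known. Besides the 10 genes, up to 4 called genes of each list are named (otherwise the 2 with most counts), the 3 nearest protein-coding genes on each side of both clusters, and the 3 genes nearest in pattern (1 of them is not reported here); some further genes are named for their role after their values were seen (NLRP3, MYD88, IRAK4, TNFAIP3, SOD2, CASP8 with NLRP1, ZC3H12A, and genes at or near 0).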

Additional observations from a re-analysis of the deposited data

How the results depend on the processing

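Of 8 tested genes of the family, 4 passed in edgeR, and 4 also passed with upper quartile factors, library size alone, the legacy fit and DESeq2. The count was 2 with robust empirical Bayes, 1 when genes averaging under 1 CPM were left out and 0 of 10 without a filter on low counts. Over all genes 1774 passed, 960 without the genes under 1 CPM, 1052 with DESeq2 and 0 without a filter (3218 at an unadjusted p under 0.05 in edgeR). Of the pathway genes 11 passed, 7 with DESeq2 and 0 without a filter (15 at an unadjusted p under 0.05). The causes were not tested. No direction of a named called gene or of the 8 tested members was turned under any alternative run. With a single hairpin against the control, log2 ratios ranged from 1.41 to 2.26 for IL1A (fitted 3.04) and from 4.04 to 5.14 for IL1RL1 with a prior count of 2, values with no test; with a prior count of 0.5 they were 3.10 under hairpin 2 and 2.11 under hairpin 3 for IL1A, and 5.26 and 4.16 for IL1RL1. No paired analysis was possible, because there is 1 control library and the labels state no pairing. Depth limits IL1A, IL18, IL1R1 and IL1R2, which had at most 15 counts in any library.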

Other observations

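The family's makeup, as a share of counts, differed between hairpins as well as from the control. Without IL1RAP, the other 9 genes held 1315 counts under hairpin 2, 629 under hairpin 3 and 280 in the control library. Of these, the 5 clustered receptors had 1021 counts under hairpin 2 and 458 under hairpin 3, against 105 in the control, and the 4 ligand genes had 294 and 171, against 175 in the control. The ligand total under hairpin 3 was close to that of the control while IL1B had more counts and IL1RN fewer than in the control, so a sum over the ligands does not show differences in opposite directions.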
